A study of Rattus norvegicus with 4 samples.

Results

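Slc1a2, Slc1a3, Glul, Gja1 and Aqp4 are genes by which astrocytes take up and convert glutamate, couple to each other and move water. Slc1a1 encodes a glutamate carrier found mostly in neurons. All 6 were read here in cultured olfactory ensheathing cells, the glia that accompany olfactory axons. The members are the probes whose gene name on the array, without the ending for predicted or mapped genes, equals 1 of these 6 names. There were 13 such probes among 41012 probes on the array, and each was described on its own. Ensheathing cells from the olfactory mucosa were set against ensheathing cells from the olfactory bulb, both from male rats of the Fischer strain, on 4 two-colour arrays. Each array held 1 of 4 biological replicates, with mucosa RNA in Cy5 and bulb RNA in Cy3, and the design text calls the samples paired. The labels give no age, passage or purity of the cultures, and both tissues were cultured by 1 protocol. All arrays had the same dye orientation, so a dye effect and a tissue difference cannot be told apart. With 4 arrays, the precision of every value is limited.

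Glutamate released by neurons is cleared by sodium-driven transporters of the SLC1 family, of which Slc1a2 and Slc1a3 encode the main astrocyte carriers and Slc1a1 encodes a carrier found mostly in neurons. Inside the astrocyte, the enzyme glutamine synthetase, encoded by Glul, joins ammonia to glutamate, and the glutamine is returned to neurons. Gja1 encodes the connexin that forms most astrocyte gap junctions, and Aqp4 encodes the water channel of astrocyte endfeet. Ensheathing cells share several markers with astrocytes and with Schwann cells.

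The first bases of the probes of Slc1a3, Slc1a2 and Glul are shown because each of these genes was read by 2 tested probes whose ratios differed in size or sign. They are the first 30 of 60 bases of each probe as the array files give them, 5′ to 3′.
Slc1a3 A_42_P533183: aggttaacctatgtggcagtcgttttgcga
Slc1a3 A_44_P167719: caaaaccacatactcctttgtacagagatg
Slc1a2 A_44_P545654: aaagcaactctaatcagtgtgtctatgccg
Slc1a2 A_44_P226231: acctgaattttagccagaattaaatattcc
Glul A_44_P458704: atatatgggtgtgtggatatatatgtcttt
Glul A_44_P381069: ttaaattttttaaagcaaaacaagtttaga

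In the rn4 build, per the array files, the Slc1a3 probes lie on the minus strand at chr2:58270419-58270478 and chr2:58270881-58270940, with starts 462 bases apart. The Slc1a2 probes lie on the plus strand at chr3:87988361-87988420 and chr3:87993033-87993092, with starts 4672 bases apart, and A_44_P226231 was designed on a splice variant of Slc1a2. The files give no coordinate for the Glul probes. Exons and untranslated regions of rn4 were not analysed here. The Glul probes are rich in A and T, with a GC content of 35.0% for A_44_P458704 and 23.3% for A_44_P381069.

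Signals are given after background correction and normalization, in arbitrary units that include an added offset of 50. The offset moves the ratio of a dim probe towards 0. Across arrays, the median spot signal before correction was 567 to 842 in Cy5 (mucosa) and 342 to 382 in Cy3 (bulb), and 82.8% to 91.1% of gene spots in a channel were well above background. The lowest signal of a probe that was well above background was 59.1 to 88.9 on the mucosa side and 70.1 to 76.2 on the bulb side. Ratios over all tested probes correlated between pairs of arrays at r = 0.35 to 0.54. Of 36743 tested probes, 1150 were higher and 1255 lower in mucosa cells, which is 3.13% and 3.42% of the tested probes and 6.55% in either direction. These calls are those of limma with Benjamini-Hochberg adjustment over all tested probes at 0.05, and every adjusted p given here comes from such a fit. With median centring of the arrays in place of loess, the split was 1625 higher and 1152 lower.

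Of the 13 member probes, 9 were well above background often enough to be tested, and they cover all 6 genes. A single one of the 9, a probe of Slc1a3, passed the adjusted threshold, and it was lower in mucosa cells. The mean log2 ratio of mucosa over bulb was below 0 for 7 of the 9 probes, against 50.2% of all tested probes. It was below 0 on all 4 arrays for 4 of the 9, both probes of Slc1a3 and both of Glul, against 16.1% of all tested probes. The median log2 ratio of the 9 was -0.76, and that of all tested probes was -0.0039. Probes of 1 gene share their transcript, so the 9 are not independent of each other. Since 2 of the 9, A_44_P167719 of Slc1a3 and A_44_P226231 of Slc1a2, passed the filter through the bulb channel alone, these counts are a description of the tested probes.

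**Figure D1:**
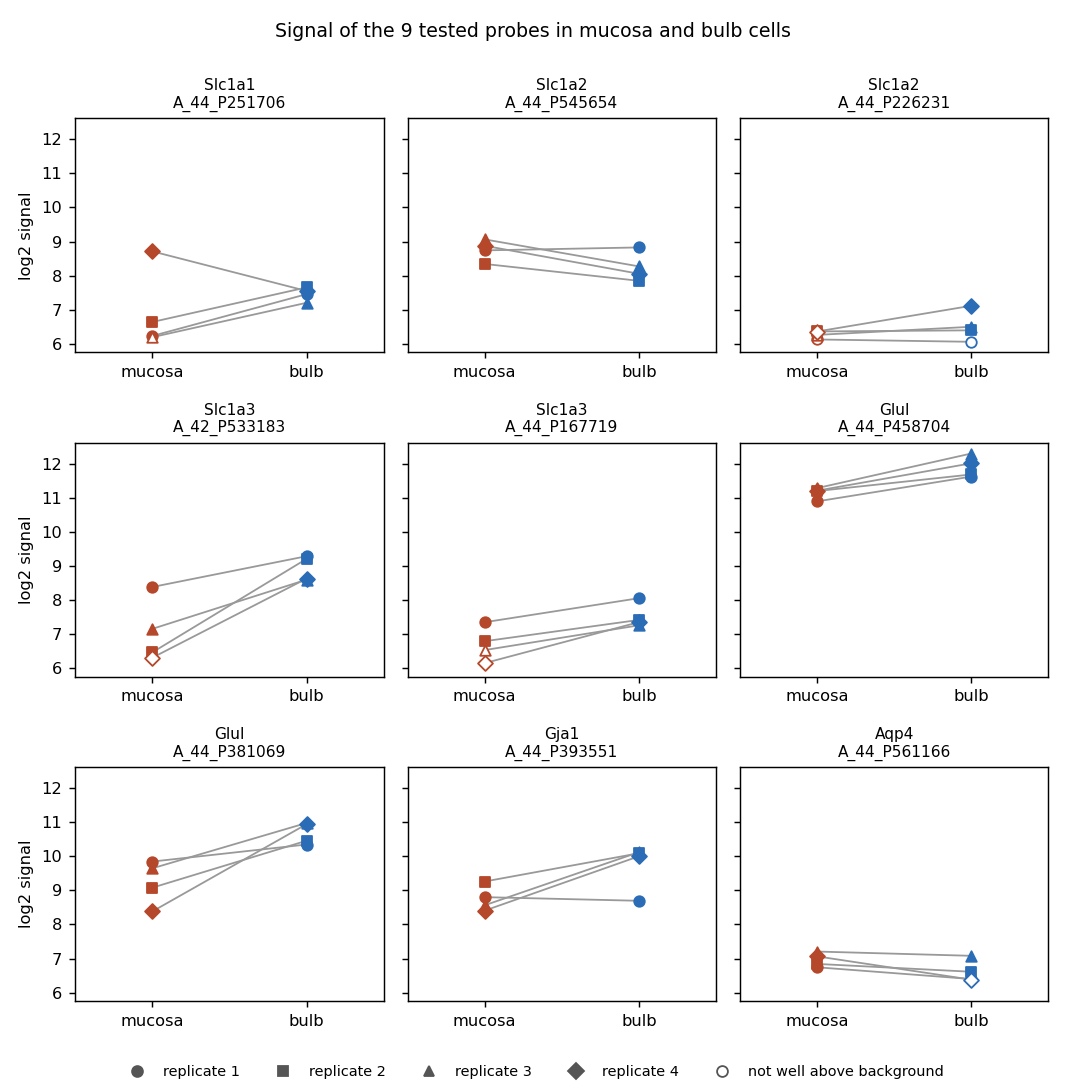
Normalized log2 signal of the 9 tested probes (vertical axis, log2 of arbitrary units) in mucosa cells (left) and bulb cells (right), with 1 line per array and open symbols where a signal was not well above background. The Slc1a3 probe A_42_P533183 and both Glul probes have mucosa values that all lie below the bulb values. The share of all tested probes separated in this way was not counted, so this is a description. The Slc1a1 line of replicate 4 runs against the other lines.

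Slc1a3, the glutamate and aspartate carrier of astrocytes and radial glia, gave the only call. Its probe A_42_P533183 read 334, 88, 143 and 79 in mucosa cells of replicates 1 to 4, and 625, 591, 388 and 396 in bulb cells. Every mucosa value lay below every bulb value, but how many of all tested probes are separated in this way was not counted. The probe was well above background on 3 of 4 arrays in mucosa cells and on 4 of 4 in bulb cells. It was 3.61-fold lower in mucosa cells, with a log2 ratio of -1.85 ± 0.83 (SD, n = 4), a 95% interval of -2.68 to -1.02 and an adjusted p of 0.0319. The ratio was below 0 on all arrays, at -0.90, -2.74, -1.44 and -2.32. The call was lost when any 1 of the 4 arrays was left out, with log2 ratios of -2.17 without replicate 1, -1.56 without replicate 2, -1.99 without replicate 3 and -1.70 without replicate 4, and adjusted p between 0.0561 and 0.110. With the ratios of the deposited value table, which carry no offset, the log2 ratio was -2.90 and the adjusted p was 0.0776.

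The second Slc1a3 probe, A_44_P167719, read 163, 111, 93 and 71 in mucosa cells, and 266, 171, 153 and 163 in bulb cells. The mucosa cells were below the bulb cells on each array, and the ranges of the groups overlapped. The log2 ratio was -0.81 ± 0.26 (SD, n = 4), with an interval of -1.33 to -0.30, and it missed the threshold at an adjusted p of 0.0787. In mucosa cells this probe was well above background on 2 of 4 arrays, against 4 of 4 in bulb cells. Its signal in mucosa cells thus lay near the floor, where the offset moves the ratio towards 0. With that limit, its ratio was nearer 0 than that of the called probe on 4 of 4 arrays, by 1.04 ± 0.81 on the log2 scale (SD, n = 4). The exact two-sided sign-flip p was 0.125, the smallest that 4 arrays allow, so this test could not pass 0.05. In the deposited value table its log2 ratio was -1.97, and the gap between the probes was 0.93. Within 3 pairs of tested probes compared in this way, the p adjusted over the pairs was 0.25 for each.

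The genes whose brightest probe had ratios most like those of A_42_P533183 over the 4 arrays, by Euclidean distance among 13870 gene symbols, were Naf1 and Lrrn3. Naf1, a small nucleolar ribonucleoprotein assembly factor that the array lists as RGD1306802, lay at a distance of 0.60, with a log2 ratio of -1.62 ± 0.79 (SD, n = 4, adjusted p = 0.0413). Lrrn3, which encodes a leucine-rich repeat membrane protein, lay at 0.79, with -1.61 ± 0.48 (SD, n = 4, adjusted p = 0.0194). In the deposited value table Naf1 had -2.15 (adjusted p = 0.0736) and Lrrn3 had -2.48 (adjusted p = 0.0297). Both genes were picked by these same ratios, so means near that of the probe follow from the choice. Both calls were lost without any 1 of the 4 arrays, with adjusted p of up to 0.124 for Naf1 and 0.0862 for Lrrn3.

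Slc1a2, the main glutamate carrier of mature astrocytes, was read by 2 probes that pointed in opposite directions. Probe A_44_P545654 read 428, 325, 535 and 470 in mucosa cells, and 455, 231, 309 and 266 in bulb cells. All signals were well above background, the ranges overlapped, and mucosa cells were above bulb cells on 3 of 4 arrays. Its mean log2 ratio was 0.51 ± 0.42 (SD, n = 4), with an interval of -0.07 to 1.08 and an adjusted p of 0.264. The interval leaves room for no difference and for a doubling.

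The splice-variant probe of Slc1a2, A_44_P226231, read 70, 82, 77 and 82 in mucosa cells, and 67, 84, 91 and 139 in bulb cells. It was well above background on 1 of 4 arrays in mucosa cells and on 3 of 4 in bulb cells, so these values lie at the lower end of what the arrays measure. At this probe the log2 ratio was -0.24 ± 0.37 (SD, n = 4), with an interval of -0.79 to 0.31 and an adjusted p of 0.564. It was -1.23 in the deposited value table, with an adjusted p of 0.248. The variant probe's ratio was below that of A_44_P545654 on 3 of 4 arrays, by -0.74 ± 0.74 on the log2 scale (SD, n = 4), and the exact two-sided sign-flip p was 0.25. Since the variant probe was near the floor in mucosa cells, the size of this gap is not settled, and it was -1.94 in the deposited value table.

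Slc1a1, the carrier found mostly in neurons, was read by 1 probe, A_44_P251706, at chr1:232551013-232551072 of rn4. It read 75, 100, 73 and 420 in mucosa cells, and 176, 202, 147 and 188 in bulb cells. Mucosa cells of replicate 4 stood above every bulb value, and the other 3 mucosa values stood below every bulb value. The log2 ratio was -0.52 ± 1.13 (SD, n = 4), with an interval of -1.56 to 0.52 and an adjusted p of 0.503. Without replicate 4 it was -1.08 (adjusted p = 0.0850), and without replicate 1, 2 or 3 it was -0.29, -0.36 and -0.36 (adjusted p of 0.746 to 0.760). It was -1.64 in the deposited value table, with an adjusted p of 0.343. This probe was printed at 10 spots of each array, of which 8 to 9 were used, and the SD between spots of 1 array was 0.047 to 0.186 on the log2 scale.

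**Figure D2:**
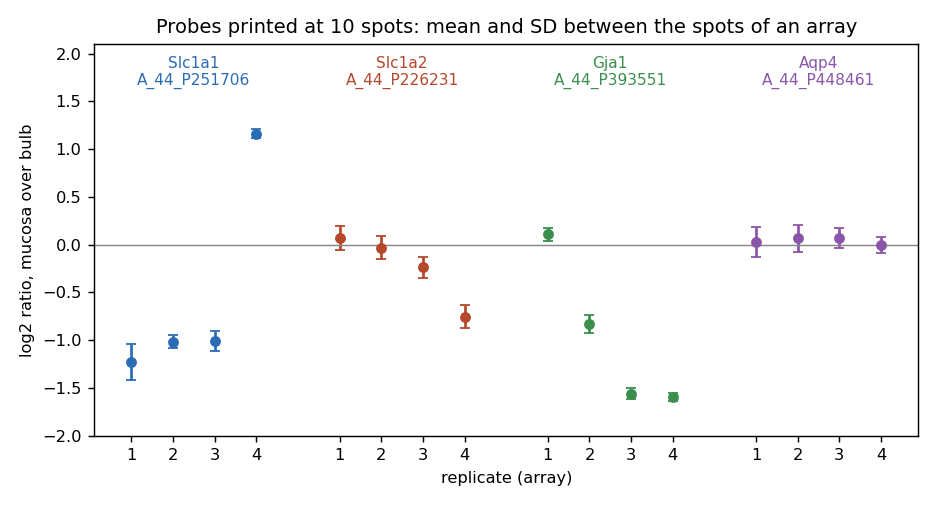
Log2 ratio of mucosa over bulb (vertical axis) on each array (horizontal axis, replicates 1 to 4) for the 4 member probes printed at 10 spots, as the mean with the SD between spots, which is spot noise and not replicate spread. Slc1a1 lies at 1.16 on replicate 4, away from the other arrays of that probe. Gja1 is spread from 0.11 on replicate 1 to -1.59 on replicate 4, and Slc1a2 from 0.07 on replicate 1 to -0.75 on replicate 4. The dim Aqp4 probe stays near 0.

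Glul, which encodes glutamine synthetase, had mucosa signals below all bulb signals at both probes, and neither probe passed the threshold. Probe A_44_P458704 read 1903, 2348, 2491 and 2365 in mucosa cells, and 3151, 3290, 5038 and 4129 in bulb cells. The groups did not overlap, and all 4 arrays had a ratio below 0. Lack of overlap was not counted over all tested probes, so it is given here as a description. The mean log2 ratio was -0.76 ± 0.22 (SD, n = 4), a 1.69-fold difference, with an interval of -1.26 to -0.26 and an adjusted p of 0.0872.

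The second Glul probe, A_44_P381069, read 919, 540, 801 and 333 in mucosa cells, and 1301, 1404, 2015 and 1966 in bulb cells. Again the groups did not overlap, and the spread between arrays was wider than at the first probe. The log2 ratio was -1.44 ± 0.85 (SD, n = 4), a 2.72-fold difference, with an interval of -2.28 to -0.60 and an adjusted p of 0.0655. Its ratio was below that of the first probe on 3 of 4 arrays, by -0.68 ± 0.85 on the log2 scale (SD, n = 4), with an exact two-sided sign-flip p of 0.25. Fitted with the channels unpaired, both Glul probes passed, with adjusted p of 0.0464 for A_44_P458704 and 0.0258 for A_44_P381069. That fit sets the pairing aside. With array weights, A_44_P381069 passed as well, at an adjusted p of 0.0429. Without any 1 array neither passed, with adjusted p of 0.178 to 0.222 for A_44_P458704 and 0.0822 to 0.181 for A_44_P381069. In the deposited value table the log2 ratios were -0.78 (adjusted p = 0.137) and -1.52 (adjusted p = 0.106). Since these are bulk cultures, fewer cells of a type and less RNA per cell cannot be told apart.

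Gja1, the main connexin of astrocyte gap junctions, was measured by 1 of its 2 probes. Probe A_44_P393551, at chr20:35422026-35422085 of rn4, read 446, 613, 378 and 339 in mucosa cells, and 414, 1089, 1113 and 1024 in bulb cells. On replicate 1 the tissues had like signals, and on the other 3 arrays mucosa cells were below bulb cells. The array ratios were 0.11, -0.83, -1.56 and -1.59, with a mean of -0.97 ± 0.80 (SD, n = 4), an interval of -1.78 to -0.16 and an adjusted p of 0.150. Without replicate 1 the log2 ratio was -1.33, with an adjusted p of 0.0932. The SD between the 9 to 10 spots used per array was 0.043 to 0.095. The other probe, A_44_P278604, was not well above background on any array in either channel, with signals of 52 to 68 in mucosa cells and 60 to 65 in bulb cells.

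Aqp4, the endfoot water channel, was measured by 1 of its 4 probes, A_44_P561166, which lies furthest 3′ of the 4 on the minus strand, at chr18:6626431-6626490 of rn4. It read 107, 115, 148 and 134 in mucosa cells, and 84, 98, 135 and 83 in bulb cells. The ratio was above 0 on all 4 arrays, but the ranges overlapped. The log2 ratio was 0.35 ± 0.24 (SD, n = 4), with an interval of -0.16 to 0.85 and an adjusted p of 0.367. With median centring in place of loess it was -0.00044, so its sign depends on the scaling, and in the deposited value table it was 0.76 (adjusted p = 0.232). The other 3 probes were not well above background on any array, with signals of 58 to 80 in mucosa cells and 60 to 72 in bulb cells, which bounds no fold change.

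**Figure D3:**
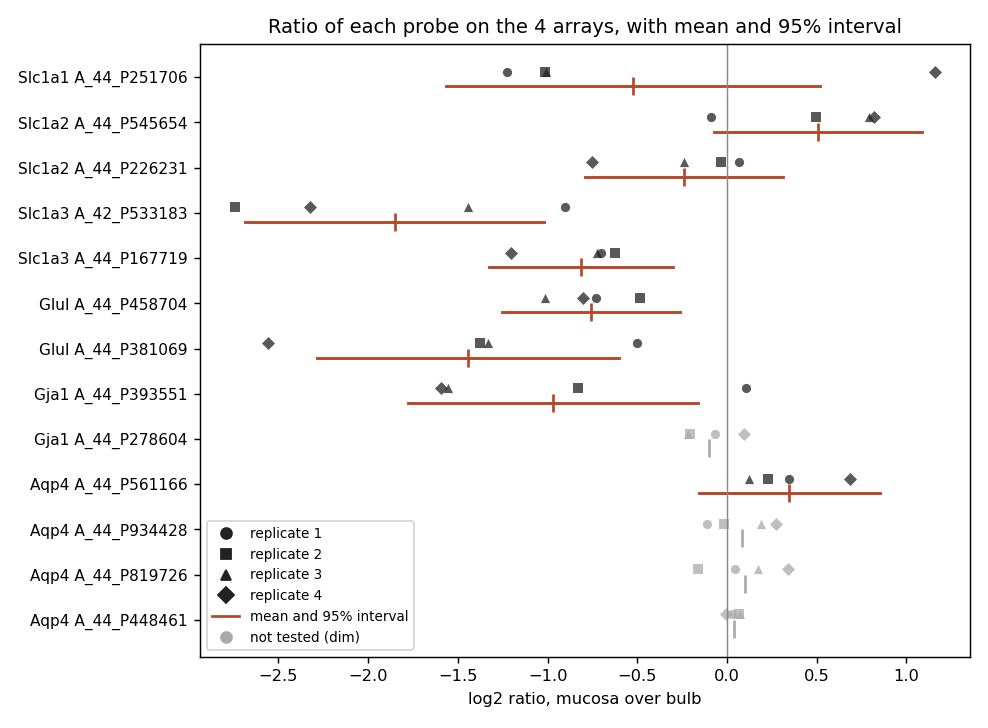
Log2 ratio of mucosa over bulb (horizontal axis) for all 13 member probes, with 1 symbol per array, the mean and, for the 9 tested probes, the 95% interval of the fit. The interval of Slc1a3 A_42_P533183 lies furthest below 0, those of the second Slc1a3 probe, both Glul probes and Gja1 also lie below 0, and the 4 dim probes are drawn in grey.

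Genes that act beside these 6 were read in 10 lists, with 100 probes on the array and 92 tested. Of the 92, 11 were higher and 6 lower in mucosa cells, beside 3.13% and 3.42% of all tested probes, and the median log2 ratio was 0.16, against -0.0039 for all tested probes. With median centring the split was 13 higher and 3 lower, and in the deposited value table it was 7 higher and 0 lower. Left without 1 array in turn, the count of 17 fell to between 2 and 11. The lists are small, so their counts are read against those shares as descriptions. By gene, the calls of Panx3 and Aqp1 held without any 1 array, and each other called gene named here from these lists lost its call without at least 1 array.

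Other SLC1 carriers had 1 higher and 0 lower of 4 tested probes, with a median of 0.45. Slc1a4, a neutral amino acid carrier of the same family, was 4.77-fold higher in mucosa cells, with a log2 ratio of 2.25 ± 0.59 (SD, n = 4, adjusted p = 0.00959, and 0.0550 without replicate 2). Glutamate and glutamine metabolism had 3 higher and 0 lower of 15 tested probes, with a median of 0.47. Oat, ornithine aminotransferase, was 2.85-fold higher at 1 probe (log2 ratio 1.51 ± 0.27, SD, n = 4, adjusted p = 0.0145) and missed the threshold at the other, with 1.09 ± 1.34. Without replicate 1, 2 or 4 its adjusted p reached up to 0.0802.

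Glutamine and cystine transporters had 2 higher and 1 lower of 9 tested probes, with a median of 0.12. Slc38a2, a sodium-coupled glutamine carrier, was higher at both probes, with log2 ratios of 1.81 ± 0.24 (adjusted p = 0.00763, and 0.0515 without replicate 2) and 1.29 ± 0.51 (adjusted p = 0.0403, SD, n = 4 each). The second probe lost its call without any 1 array, with adjusted p of up to 0.142. Slc7a11, the exchanger that brings cystine in against glutamate, was lower, with -1.71 ± 0.90 (SD, n = 4, adjusted p = 0.0462), and with -3.57 in the deposited value table (adjusted p = 0.101). It was well above background on 2 of 4 arrays in mucosa cells and on 4 of 4 in bulb cells, so the size of the difference is not settled, and its call was lost without any 1 array, with adjusted p of up to 0.149. Glutathione synthesis had 1 higher and 0 lower of 4 tested probes, with a median of 0.47. Gclc, the catalytic subunit of the first enzyme of that synthesis, was 2.90-fold higher (log2 ratio 1.54 ± 0.63, SD, n = 4, adjusted p = 0.0332), with adjusted p of up to 0.128 without replicate 1, 2 or 3. None of 3 vesicular glutamate transporter probes passed by limma, the median was 0.14, and Slc17a7, which loads glutamate into synaptic vesicles, had -0.30 ± 0.46 (SD, n = 4, adjusted p = 0.509).

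Connexins and pannexins had 2 higher and 2 lower of 19 tested probes, with a median of 0.085. The channel gene Panx3 was 3.85-fold higher (log2 ratio 1.94 ± 0.27, SD, n = 4, adjusted p = 0.00678), and the related Panx1 was 2.81-fold lower (-1.49 ± 0.66, SD, n = 4, adjusted p = 0.0388). The connexin gene Gjc1, listed on the array as Gja7, was the other lower probe, with -1.08 ± 0.32 (SD, n = 4, adjusted p = 0.0411). The calls of Panx1 and Gjc1 were lost without any 1 array, with adjusted p of up to 0.140 and 0.123. Junction partners, which include the scaffold genes that bind connexins, had 0 calls by limma in 10 tested probes and a median of -0.11. The largest ratio there was that of the caveolin gene Cav1, at 1.54 ± 1.42 (SD, n = 4, adjusted p = 0.146). Further probes of Cav1 had 1.49 ± 1.28 and 0.34 ± 0.88 (SD, n = 4 each). The probes of the scaffold gene Tjp1 were all below 0 and not called. They had -1.09 ± 0.57, -0.88 ± 0.18, -0.76 ± 0.086 and -0.31 ± 0.77 (SD, n = 4 each).

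Other aquaporins had 2 higher and 0 lower of 11 tested probes, with a median of 0.62. Aqp1, a water channel, was 5.91-fold higher in mucosa cells, with a log2 ratio of 2.56 ± 0.61 (SD, n = 4, adjusted p = 0.00693). Aqp12a, listed on the array as RGD1562727, was 1.86-fold higher (0.90 ± 0.083, SD, n = 4, adjusted p = 0.0482), and lost its call without any 1 array, with adjusted p of up to 0.186. The potassium and water complex of the endfoot had 0 higher and 2 lower of 13 tested probes, with a median of -0.68. The list was mixed in sign. Above 0 and not called were Kcnj10 (0.85 ± 1.63), Trpv4 (0.83 ± 0.23), both probes of Mlc1 (0.23 ± 0.24 and 0.47 ± 0.44) and 1 probe of Dmd (0.37 ± 0.89, SD, n = 4 each). Dtna and Dag1, which encode the dystrophin-complex proteins alpha-dystrobrevin and dystroglycan, were lower, with -1.97 ± 0.84 (adjusted p = 0.0273) and -1.13 ± 0.16 (adjusted p = 0.0276, SD, n = 4 each). In the deposited value table Dtna had -2.97 (adjusted p = 0.121). Further probes of these genes missed the threshold, at -1.86 ± 1.30 for Dtna and -0.88 ± 0.13 and -0.71 ± 0.55 for Dag1. Without 1 array, adjusted p reached 0.0880 for Dtna (lost without replicate 1, 2 or 4) and 0.102 for Dag1 (lost without any).

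Proteins that associate with the transporters had 0 higher and 1 lower of 4 tested probes, with a median of -0.71. Ezr, which encodes the membrane linker ezrin and is listed on the array as Vil2, was 2.16-fold lower, with -1.11 ± 0.21 (SD, n = 4, adjusted p = 0.0314). It lost its call without any 1 array, with adjusted p of up to 0.144. A further probe of Ezr missed the threshold, at -0.86 ± 0.25 (SD, n = 4, adjusted p = 0.0665).

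**Figure D4:**
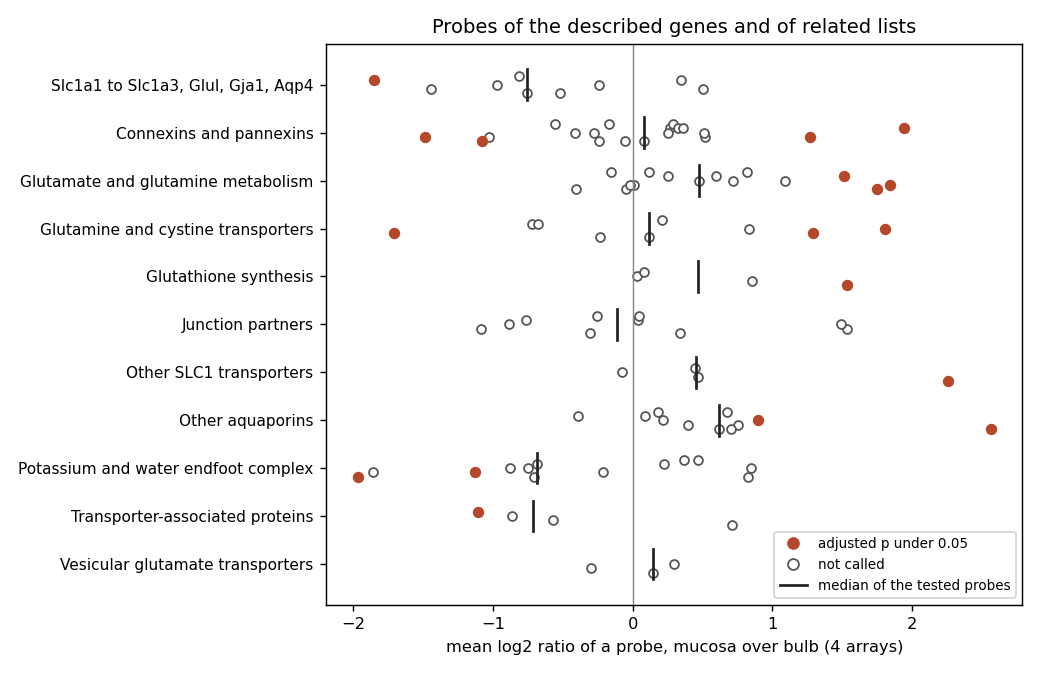
Mean log2 ratio of mucosa over bulb over 4 arrays (horizontal axis) for the tested probes of the 6 genes and of the 10 related lists, 1 point per probe, filled where the adjusted p was under 0.05, with a bar at each median. The member median lies at -0.76, and the list medians run between -0.71 for transporter-associated proteins and 0.62 for other aquaporins.

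Markers of 10 cell types were read as well, and at least 1 probe of each list passed the test. Summed signals are carried by the brightest probes of a list. Of 14 tested probes for astrocyte markers, 1 was higher and 6 were lower in mucosa cells, with a median log2 ratio of -0.74, and their summed signal was 57686 to 64923 in mucosa cells and 119517 to 152123 in bulb cells. Vim and Nes gave 78.0% to 81.9% of that sum in mucosa cells and 83.6% to 87.3% in bulb cells, and without them the sum was 11047 to 12716 in mucosa cells and 18084 to 23816 in bulb cells. Every gene of this list of 12 was detected. Lower were Fabp7, a fatty acid binding protein of radial glia (-2.94 ± 0.49, adjusted p = 0.00350), the filament gene Nes (-2.31 ± 0.23, adjusted p = 0.00415) and the calcium-binding protein gene S100b (-1.49 ± 0.13, adjusted p = 0.0119, SD, n = 4 each). The S100b call was lost without replicate 1 and without replicate 2, with adjusted p of up to 0.0652. The other lower probes were of Gfap (-1.44 ± 0.26, adjusted p = 0.0164), Vim (-0.94 ± 0.12, adjusted p = 0.0450) and again Nes (-2.14 ± 0.45, adjusted p = 0.00757, SD, n = 4 each). The Gfap and Vim calls were lost without any 1 array, with adjusted p of up to 0.0732 and 0.175. That of the further Nes probe was lost without replicate 1 (adjusted p = 0.0506). The 1 higher probe was of the transcription factor gene Sox9, at 1.14 ± 0.17 (SD, n = 4, adjusted p = 0.0266), and its call was lost without any 1 array, with adjusted p of up to 0.124. A brighter probe of Sox9 missed the threshold, at 0.25 ± 0.23 (SD, n = 4, adjusted p = 0.498). Kcnj10, a potassium channel gene of astrocytes, missed the threshold at 0.85 ± 1.63 (SD, n = 4, adjusted p = 0.431). Markers of ensheathing and Schwann glia, the labelled cell type, were also all detected and had 1 higher and 6 lower of 14 tested probes, with a median of -0.98. Their summed signal was 24737 to 30281 in mucosa cells and 52446 to 63047 in bulb cells. The lower S100b probe is counted both in this list and in the astrocyte list, so their counts are not independent. Sox10 and Cdh19 were lower, at -1.87 ± 0.55 and -2.44 ± 0.98, and Gldn was higher, at 1.87 ± 0.58 (SD, n = 4 each), with adjusted p of 0.0155, 0.0200 and 0.0168. Each of these calls was lost without at least replicate 1, with adjusted p of up to 0.0773, 0.0727 and 0.0781.

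Of 15 probes tested for fibroblasts, 9 were higher and 3 lower in mucosa cells, with a median of 1.70. Their summed signal was 478583 to 531706 in mucosa cells and 167798 to 232919 in bulb cells. The 3 lower probes were both of Fbln1 (-4.16 ± 0.64 and -4.15 ± 0.62) and that of Dcn (-2.01 ± 0.95, SD, n = 4 each). Their adjusted p were 0.00227, 0.00222 and 0.0331. For smooth muscle and pericytes, 4 of 6 probes were higher and 0 lower, with a median of 1.88. Their summed signal was 94688 to 108204 in mucosa cells and 17024 to 28397 in bulb cells. Rgs5 of this list lay below 0 and was not called, at -2.45 ± 2.29 (SD, n = 4, adjusted p = 0.137). The neuron list, which does not hold Slc1a1, had 0 higher and 3 lower of 10, with a median of -0.12 and a summed signal of 3062 to 4429 in mucosa cells and 6836 to 7580 in bulb cells. The 3 lower probes were of the neurofilament genes Nefm, Nefl and Nefh. Without the brightest probes, of Nefh and Nefm, the sum was 2314 to 2938 in mucosa cells and 2864 to 3478 in bulb cells, with overlapping ranges. Oligodendrocyte markers had 0 higher and 3 lower of 10, and their summed signal was 18247 to 20559 in mucosa cells and 35148 to 42415 in bulb cells. Meningeal markers had 0 higher and 2 lower of 6, with summed signals of 5583 to 8746 in mucosa cells and 9521 to 12063 in bulb cells. Macrophage markers had 1 higher and 0 lower of 6 (5328 to 8915 in mucosa cells and 4652 to 10741 in bulb cells), and epithelial markers had 1 higher and 1 lower of 8 (10404 to 17282 in mucosa cells and 4857 to 6192 in bulb cells). Without the brightest probes, of Krt8 and Krt18, the epithelial sum was 2236 to 3183 in mucosa cells and 2722 to 3092 in bulb cells, with overlapping ranges. Endothelial markers had 0 higher and 1 lower of 5, with summed signals of 1716 to 3027 in mucosa cells and 2279 to 3583 in bulb cells. The part of any of these cell types in the ratios of Slc1a3, Glul and Gja1 was not tested.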

How the data were processed

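Per the labels, polyA RNA was amplified by PCR of cDNA and labelled with Cy5 for mucosa and with Cy3 for bulb. The authors deposited raw spot and local background intensities of 4 arrays with 45018 features, made with Agilent Feature Extraction 10.5.1.1 per the file headers (9.1 per the submitters' processing notes). The value table of the series holds the deposited log10 ratio of Cy5 over Cy3, equal to that of the array files at every feature. PCR can change the ratio of transcripts. All arrays shared 1 slide and 1 scan, so neither was a batch.

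In limma 3.58.1 under R 4.3.3, intensities were corrected with normexp (offset 50) and normalized by loess, with control and outlier spots at weight 0 and outlier spots left out. Spots of a probe were averaged. Probes well above background in at least 0.5 of their spots on at least 3 arrays in 1 channel were tested, and 4269 were not. The 4 within-array log2 ratios were tested against 0 with lmFit and eBayes (6.36 degrees of freedom), which keeps the pairing. Channel signals are after Aquantile. Benjamini-Hochberg adjustment ran over all tested probes, at a threshold of 0.05. The fit was tested on simulated data.

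The members and lists were chosen with earlier results of these data known. Named from each list were up to 3 called probes of largest absolute ratio, 1 per gene, or the largest where none was called, and the 2 genes nearest to the called member. Outside that rule, Gjc1, Tjp1, Kcnj10, Trpv4, Mlc1 and Dmd were given after their values were seen. So were the markers Sox9, Gfap, Vim, Aldh1l1, Aldoc, Gjb6, Ntsr2, Slc4a4, Dcn and Rgs5, and further probes of named genes. Some results that the rule names are not reported here. Gene names are those of the array, updated where an accession (11087 probes), symbol (5132) or synonym (3433) matched a GRCr8 gene list, and 21360 probes kept the file's name. Files were read with the R packages jsonlite 2.0.0 and data.table (version 1.17.8) and with Python 3.11.15 with pandas 2.3.3 and numpy 2.4.6, and figures drawn with matplotlib 3.10.9. Alternatives changed background correction, normalization, filter, variance model, pairing and the arrays used. No columns lacked a sample.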

Additional observations from a re-analysis of the deposited data

Results flagged for a closer look

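Among 27 sets of 4 values from the tested member probes, 2 held a value far from the other 3. The measure was Dixon's ratio of gap to range, and chance alone sets apart about 1 in 20 such sets. For each probe the sets are the log2 ratio and the log2 signals of mucosa and bulb cells, from which the ratio follows. The sets are thus not independent of each other. The Slc1a1 ratio of replicate 4 was 1.16 on the log2 scale, against -1.23 to -1.01 on the other arrays, with a Dixon ratio of 0.909. The bulb signal of Gja1 probe A_44_P393551 in replicate 1 was 414, against 1024 to 1113 in the other bulb samples, with a Dixon ratio of 0.916 on log2 signals.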

How the results depend on the processing

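Over 18 alternatives, of which removal of a GC trend was chosen after seeing the data, the 9 member ratios kept their sign except that of Aqp4, which was -0.00044 with median centring. The member call count of 1 became 0 with scanner processed signals, the deposited value table, the strict filter, the trended and robust variance and the unmoderated statistic, 2 with array weights and 3 with unpaired channels (no replicate block). Under the strict filter the called Slc1a3 probe was not tested. Without 1 array the count was 0 each time by limma. In the full set 5 of the 9 had an unadjusted limma p under 0.05, beside 23.8% of all tested probes. These 5 were both probes of Slc1a3, both of Glul and that of Gja1, so they are not independent. Among them, A_44_P167719 of Slc1a3 passed the filter through the bulb channel alone, so this count is a description. The adjusted p of Slc1a3 A_42_P533183 ran between 0.0187 and 0.182, with 0.0712 under the trended and 0.182 under the unmoderated variance. Calls over all probes, 2405, became 1042 with trended variance, 81 unmoderated, 3989 with unpaired channels and 616 to 1230 without 1 array. Related-list calls, 17 (11 higher, 6 lower), became 7 (7 higher, 0 lower) with processed signals, the value table or trended variance, 0 unmoderated, 24 with array weights, 25 with unpaired channels and 2 to 11 without 1 array. The cause was not tested. Dim probes bound what could be measured: 4 of 13 member probes were never well above background.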
